A study of Gallus gallus with 858 samples.

Results

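LMX1A (ENSGALG00000003424), ISL1 (ENSGALG00000014884) and LMO4 (ENSGALG00000006252) are LIM-domain genes that were followed here through early ear and epibranchial development in single chick cells. They were chosen by gene identifier and are 3 of the 24356 genes in the count table. LMX1A and ISL1 encode LIM-homeodomain transcription factors, in which a pair of zinc-binding LIM domains recruits partner proteins such as the adaptor LDB1 and a homeodomain binds DNA. LMO4 encodes a LIM-only protein, which has LIM domains but no homeodomain and can compete for the same adaptor. LMX1A is known for patterning the dorsal neural tube and is required for inner ear development in the mouse, ISL1 is known from sensory and motor neurons and from cardiac progenitors, and LMO4 takes part in neural tube closure and in shaping the vestibular part of the mouse ear.

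The cells were live EGFP-positive cells sorted one by one from chick embryos that had been electroporated at the head fold stage with the plasmid pTK-Pax2E1-EGFP, in which an enhancer of PAX2 drives the reporter in progenitors of the ear and of the epibranchial placodes. The groups were ss8 (8 to 9 somites), ss11 (11 to 12 somites) and ss15 (14 to 15 somites), all with the same reporter and with no genetic change or treatment. The labels name no embryo, so each stage counts as 1 sample, and no test between stages or groups of cells could be made. Every interval given here covers counting error only. Each stage was 1 batch of experiments per the study's methods, and ss8 libraries were read single-end whereas those of the later stages were paired-end, so stage and batch cannot be told apart.

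Libraries were made with SmartSeq2, which reads whole transcripts without molecular tags. Before any comparison, 8 pairs of ss8 libraries were found to be near-identical, with correlations of 0.996 to 0.998 where no further pair exceeded 0.880. Each such pair was added up to 1 cell, leaving 850 cells, of which 781 had at least 500000 counts and 1000 genes. Median depth was 1.25e+06 counts for ss8 cells, 1.03e+06 counts for ss11 cells and 843786 counts for ss15 cells, with medians of 7456, 4999 and 4863 genes. Levels are given in CPM (a gene's count divided by the cell's total, times 1000000), and a gene was taken as detected from 10 CPM, which is at least 5 reads in the shallowest cells. Counting each near-identical library as a cell gave LMX1A, ISL1 and LMO4 in 53.8%, 15.4% and 39.6% of GATA3-positive ss8 cells, against 54%, 16.1% and 40.2% with the pairs joined.

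Cells with GATA3 (ENSGALG00000029270) at 10 CPM or more were set against the remaining cells of the same stage. GATA3 encodes a zinc finger transcription factor of the ear and of non-neural ectoderm, and 31.9% of ss8 cells, 42.7% of ss11 cells and 48% of ss15 cells had it. The homeobox gene DLX3, a further ectodermal gene, was at 12 CPM in GATA3-positive against 0.855 CPM in GATA3-negative cells of ss8, 23.6 against 7.80 CPM at ss11 and 21.4 against 13.4 CPM at ss15. DLX6 was at 44.1 against 2.58 CPM in ss8 and 17.03 against 3.29 CPM in ss15 cells, but at 7.52 against 6.68 CPM in ss11 cells. Of 6 listed neural crest genes, 4, 4 and 5 were at least 2-fold lower in GATA3-positive cells at the successive stages, beside 6.21%, 5.99% and 7.21% of all measured genes. In summed counts GATA3-positive cells thus had more of both ectodermal genes and less of most crest genes. For DLX6 in ss11 the ratio was only 1.13. Its interval of 1.03 to 1.23 covers the counting of reads and not the spread between cells.

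GATA3-positive cells also had more genes, with a median of 7866 against 7158 in GATA3-negative cells of ss8, 5384 against 4795 in ss11 and 5048 against 4685 in ss15. They had more reporter reads as well, with a median of 409.7 against 76.6 CPM in ss8, 197.7 against 0 CPM in ss11 and 179.9 against 0 CPM in ss15. Thinning every cell to 500000 counts left the gap in genes, with medians of 7631 against 6940 in ss8, 5230 against 4663 in ss11 and 4932 against 4525 in ss15. The values after thinning therefore speak to depth only. The part of the gene and reporter differences in the results was not tested.

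LMX1A was found in a larger share of GATA3-positive than of GATA3-negative cells at every stage, and in a smaller share of cells at each later stage. At ss8 it was detected in 47 of 87 GATA3-positive cells (54%, exact 95% interval 43 to 64.8%) and in 60 GATA3-negative cells (32.3%, 25.6 to 39.5%). At ss11 it was in 50 GATA3-positive cells (44.6%, 35.2 to 54.3%) and in 37 of 150 GATA3-negative cells (24.7%, 18 to 32.4%). At ss15 it was in 40 GATA3-positive cells (33.9%, 25.4 to 43.2%) and in 24 GATA3-negative cells (18.8%, 12.4 to 26.6%). The intervals of both groups were apart for ss8 and ss11 and overlapped slightly for ss15. In order, the 6 shares ran from ss8, ss11 and ss15 GATA3-positive cells down to ss8, ss11 and ss15 GATA3-negative cells, and each overlapped its neighbour. Genes per cell also fell with stage, with medians of 7866, 5384 and 5048 in GATA3-positive and 7158, 4795 and 4685 in GATA3-negative cells. The part of this fall in the LMX1A shares was not tested.

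Among the cells that had it, LMX1A varied widely. In GATA3-positive cells with LMX1A the lowest, median and highest values were 16.2, 125.1 and 319.9 CPM for ss8, 10.7, 86.2 and 615 CPM for ss11, and 10.4, 138.9 and 473 CPM for ss15. In GATA3-negative cells with LMX1A they were 11.4, 55.5 and 472 CPM for ss8, 13.3, 125.5 and 1416 CPM for ss11, and 19.1, 95.6 and 954 CPM for ss15. The ranges overlapped almost wholly, and the median was higher in GATA3-positive cells of ss8 and ss15 and in GATA3-negative cells of ss11.

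**Figure D1:**
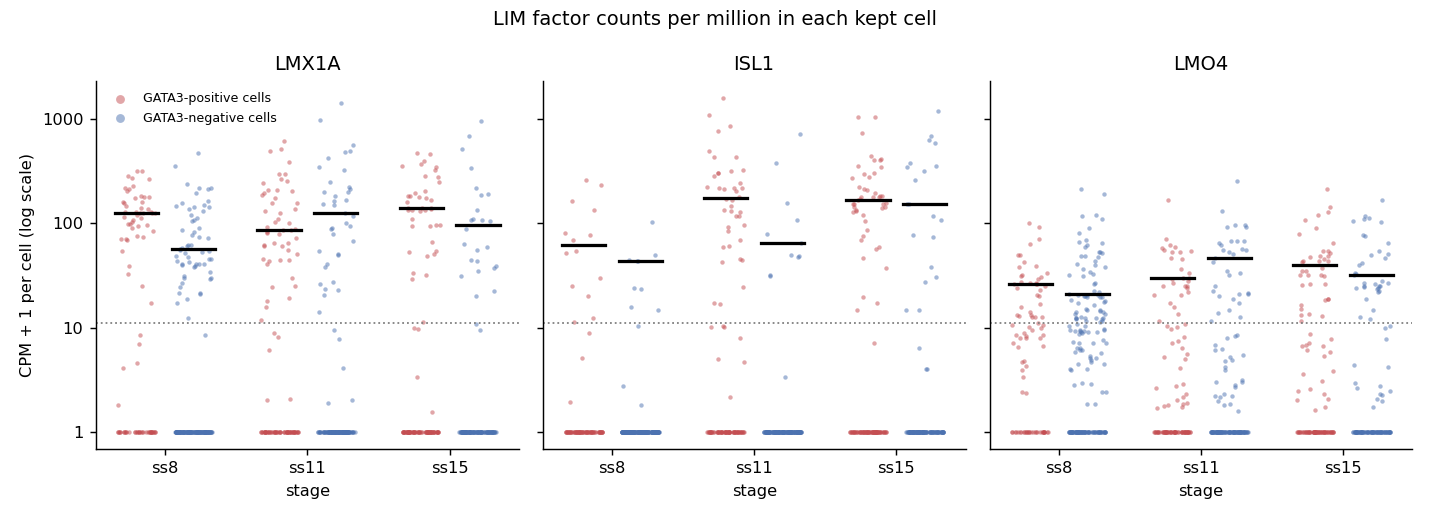
Counts per cell as CPM plus 1 (log axis) of LMX1A, ISL1 and LMO4 in every kept cell, by stage, with GATA3-positive cells (red) left of GATA3-negative cells (blue). The dotted line is 10 CPM and each black bar is the median of the cells at or above it, which for ISL1 in GATA3-positive cells was 61 CPM for ss8, 174.3 CPM for ss11 and 168.3 CPM for ss15.

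Summed over cells, LMX1A was at 69.3 CPM in GATA3-positive and 27.7 CPM in GATA3-negative cells of ss8, a log2 fold of 1.30. It was at 59.2 and 46.9 CPM in ss11 (log2 fold 0.33) and at 56.3 and 33.9 CPM in ss15 (log2 fold 0.71). Of these only the ss8 difference passed 2-fold, as 8.79% of 12002 measured genes did in that direction, against 6.10% of 11542 genes for ss11 and 4.13% of 11428 genes for ss15. Single cells weighed on these sums, since 1 GATA3-negative cell held 17.8% of the LMX1A reads of its group at ss11 and another held 24% at ss15. Without the cell with the most reads in each group the log2 folds were 1.35, 0.49 and 0.97. With the mean of log2(CPM + 1) over cells, which gives each cell the same weight, the difference was 1.88, 1.25 and 1.17, past 1 at all 3 stages. This measure also rises with the share of cells that have the gene. The share of all genes past 1 on it was not worked out. Taken apart, the 3 ss8 plates gave LMX1A in 48.3%, 62.9% and 47.8% of GATA3-positive cells and in 41.1%, 28.8% and 28.2% of GATA3-negative cells. The direction was the same in each plate, with intervals apart in plate 2 only.

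ISL1 was found in more cells at the later stages. It was detected in 14 of 87 GATA3-positive cells of ss8 (16.1%, 9.09 to 25.5%), against 9 GATA3-negative cells (4.84%, 2.24 to 8.99%). In ss11 it was in 40 GATA3-positive cells (35.7%, 26.9 to 45.3%) against 11 of 150 GATA3-negative cells (7.33%, 3.72 to 12.7%). In ss15 it was in 46 GATA3-positive cells (38.98%, 30.1 to 48.4%) against 20 GATA3-negative cells (15.6%, 9.81 to 23.1%). The intervals of GATA3-positive and GATA3-negative cells did not overlap at any stage, but at ss8 they only just missed (9.09% against 8.99%). After thinning to 500000 counts the ss8 share in GATA3-positive cells was 13.8% (7.34 to 22.9%). In GATA3-negative cells it stayed at 4.84%, so the ss8 intervals then overlapped. Ordered by share, GATA3-positive cells of ss15 and ss11 came first and overlapped each other. A gap followed to GATA3-positive cells of ss8, which overlapped GATA3-negative cells of ss15, and GATA3-negative cells of ss11 and ss8 were lowest, each overlapping its neighbour.

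The level of ISL1 in cells that had it was also lower in ss8. In GATA3-positive cells with ISL1 the lowest, median and highest values were 10.3, 61 and 261.04 CPM for ss8, 15.9, 174.3 and 1603 CPM for ss11, and 13.8, 168.3 and 1052 CPM for ss15. In GATA3-negative cells with ISL1 they were 13.9, 42.7 and 102.7 CPM for ss8, 30.4, 63.9 and 716 CPM for ss11, and 13.7, 152.99 and 1201 CPM for ss15. The highest ss8 cell of either group thus lay far under the highest cells of the later stages.

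ISL1 had a larger GATA3 difference in summed counts than LMX1A or LMO4 at every stage. It was at 14.2 CPM in GATA3-positive against 1.87 CPM in GATA3-negative cells of ss8 (log2 fold 2.41), at 93.8 against 9.81 CPM in ss11 (log2 fold 3.13) and at 91.4 against 43.7 CPM in ss15 (log2 fold 1.05). All 3 folds passed 2-fold. The one for ss15 was 0.98 after thinning, just under 2-fold, and for ss8 the mean of log2(CPM + 1) differed by 0.74, less than the 1.88 of LMX1A. At ss8, 1 GATA3-positive cell held 23% of the ISL1 reads of its group, and at ss11 1 GATA3-negative cell held 35.1%. Without the cell with the most reads in each group the folds were 2.41, 3.52 and 1.23. ISL1 was in 6.90%, 17.1% and 26.1% of GATA3-positive cells of the 3 ss8 plates, against 1.79%, 8.47% and 4.23% of their GATA3-negative cells. The direction was again the same in each plate, but on few cells, 2, 6 and 6 against 1, 5 and 3. The intervals overlapped in every plate.

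LMO4 did not follow the GATA3 split. It was detected in 35 of 87 GATA3-positive cells of ss8 (40.2%, 29.9 to 51.3%) against 64 GATA3-negative cells (34.4%, 27.6 to 41.7%). In ss11 it was in 29 GATA3-positive cells (25.9%, 18.1 to 35%) against 33 of 150 GATA3-negative cells (22%, 15.7 to 29.5%), and in ss15 in 38 GATA3-positive cells (32.2%, 23.9 to 41.4%) against 35 GATA3-negative cells (27.3%, 19.8 to 35.9%). The share was higher in GATA3-positive cells each time, but all these intervals overlapped. Summed LMO4 was at 12.6 CPM in GATA3-positive against 14.02 CPM in GATA3-negative cells of ss8, at 11.2 against 10.8 CPM in ss11 and at 15.8 against 15.2 CPM in ss15, with log2 folds of -0.14, 0.04 and 0.06. The ss8 fold and the ss8 share point in opposite directions, and the mean of log2(CPM + 1) was 0.34 higher in GATA3-positive ss8 cells.

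LMO4 detection depended strongly on the limit used. In GATA3-positive cells with LMO4 the lowest, median and highest values were 10.02, 25.5 and 99.9 CPM for ss8, 10.6, 28.7 and 166.3 CPM for ss11, and 10.7, 39.2 and 214.98 CPM for ss15. In GATA3-negative cells with LMO4 they were 10.4, 19.95 and 214.1 CPM for ss8, 10.5, 46.01 and 251.8 CPM for ss11, and 11.3, 31.04 and 168.5 CPM for ss15. The median cell with LMO4 thus lay under 50 CPM in each group. Any LMO4 read was found in 65.5%, 47.3% and 48.3% of GATA3-positive cells of the successive stages. CPM is not corrected for gene length, so these values rank cells within a gene and do not rank the genes.

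**Figure D2:**
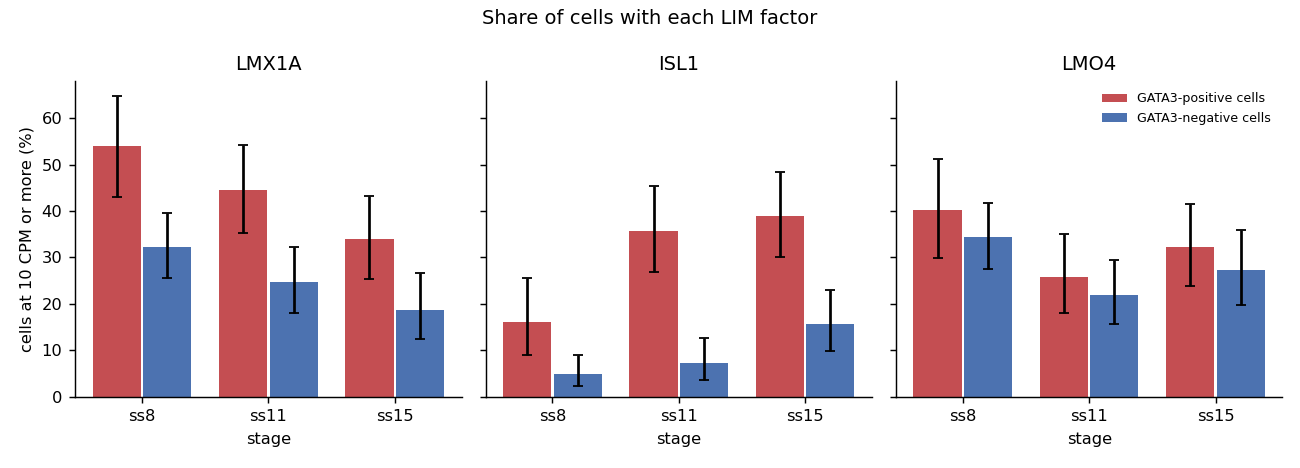
Percent of cells with each LIM factor at 10 CPM or more, by stage, in GATA3-positive (red, left) and GATA3-negative cells (blue, right). Error bars are exact binomial intervals at 95% and cover counting of cells only. ISL1 error bars are apart at every stage (35.7% against 7.33% in ss11), though only just in ss8, and LMO4 error bars overlap at every stage.

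Within GATA3-positive cells, each stage was set over an earlier one. ISL1 was 2.64 higher on the log2 scale in ss11 than in ss8 cells and 2.60 higher in ss15 than in ss8 cells, with a log2 fold of -0.04 for ss15 over ss11. At least 2-fold higher were 10.2% of 12014 measured genes for ss11 over ss8, 3.94% of 11524 genes for ss15 over ss11 and 10.8% of 12013 genes for ss15 over ss8. ISL1 was thus 1 of many genes past 2-fold in the comparisons with ss8, and its fold there ran from 1.78 to 3.16 over the alternatives tried, among them ss8 without each plate.

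LMX1A gave log2 folds of -0.22 for ss11 over ss8, -0.07 for ss15 over ss11 and -0.30 for ss15 over ss8, none past 2-fold. The median of all measured genes was itself -0.16 for ss11 over ss8 and -0.20 for ss15 over ss8. Its share of positive cells fell more than its summed level, and the mean of log2(CPM + 1) was 1.38 lower in ss15 than in ss8 cells. LMO4 gave -0.16, 0.47 and 0.31 in the same order, and its ss15 over ss8 difference turned to -0.57 with the mean of log2(CPM + 1), so no direction is given for it. In GATA3-negative cells ISL1 was 1.91 higher for ss11 over ss8, 2.05 higher for ss15 over ss11 and 3.96 higher for ss15 over ss8, with 0.21, 0.69 and 0.90 by the mean of log2(CPM + 1).

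LMX1A and ISL1 were not exclusive. In GATA3-positive cells both were detected together in 5 of 87 cells at ss8 (5.75%, 1.89 to 12.9%), in 11 cells at ss11 (9.82%, 5.01 to 16.9%) and in 12 cells at ss15 (10.2%, 5.37 to 17.1%). If the genes had been detected independently, the product of their shares would give 7.56, 17.9 and 15.6 such cells. The ratio of observed to expected was 0.66 for ss8 (0.22 to 1.48), 0.62 for ss11 (0.31 to 1.06) and 0.77 for ss15 (0.41 to 1.29). It was under 1 each time, and each interval held 1. These intervals cover the count of cells with both alone and take the expected count as fixed. They are therefore no test of independence, and none was made. For ss11 the interval lay just under 1 when detection was set at 1 CPM (0.34 to 0.97) or at 50 CPM (0.14 to 0.98).

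The ratio of the pair was then placed among those of all genes detected in at least 5% of the same cells. Ratios of 0.5 or less with LMX1A were found for 1.04% of 11472 genes in ss8, 1.74% of 11038 genes in ss11 and 3.36% of 10929 genes in ss15, and with ISL1 for 7.64%, 3.81% and 2.55% of the same genes. The pair itself was not among them at any stage. A ratio as low as that of the pair or lower was found with LMX1A for 2.71%, 2.76% and 10.5% of genes, and with ISL1 for 12.5%, 5.57% and 8.08%. The pair thus lay on the low side of all genes. These genes were not matched to the pair in the share of cells that had them. A gene found in most cells must have a ratio near 1, so the percentages can make the pair look rarer than it is. How the pair compares with genes of like detection was not worked out.

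The remaining GATA3-positive cells fell into LMX1A only, ISL1 only and neither. LMX1A only made up 42 cells (48.3%) of ss8, 39 (34.8%) of ss11 and 28 (23.7%) of ss15. ISL1 only made up 9 cells (10.3%), 29 (25.9%) and 34 (28.8%). Neither gene was detected in 31 (35.6%), 33 (29.5%) and 44 cells (37.3%). LMX1A-only cells thus outnumbered ISL1-only cells in ss8 and ss11, and ISL1-only cells were slightly more numerous in ss15. The intervals of these classes were apart in ss8 only. They overlapped in ss11 (26.1 to 44.4% and 18.1 to 35%) and in ss15 (16.4 to 32.4% and 20.8 to 37.9%). Of the cells with LMX1A, 10.6%, 22% and 30% also had ISL1 at the successive stages, beside 16.1%, 35.7% and 38.98% of all GATA3-positive cells. Of the cells with ISL1, 35.7%, 27.5% and 26.1% also had LMX1A, beside 54%, 44.6% and 33.9% of all GATA3-positive cells. These shares thus moved with the share of the other gene among all GATA3-positive cells and lay under it each time.

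**Figure D3:**
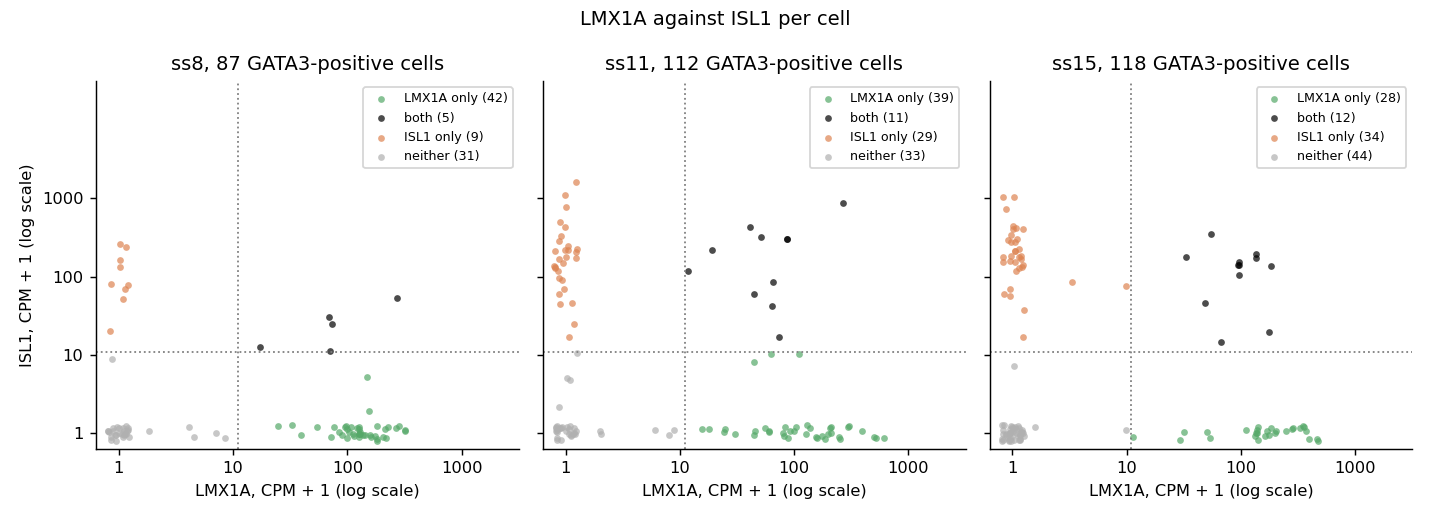
ISL1 against LMX1A, both as CPM plus 1 on log axes, in the GATA3-positive cells of each stage. Dotted lines mark 10 CPM, the legend gives the number of cells per class, and cells at 0 CPM are spread slightly so that they can be seen. Cells with both genes number 5, 11 and 12, beside 42, 39 and 28 cells with LMX1A only.

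Cells with both genes held each well over the detection limit in the median cell of ss11 and ss15. Their median LMX1A was 69.7 CPM in ss8, 63.5 CPM in ss11 and 94.7 CPM in ss15, against 125.9, 110.2 and 171.3 CPM in LMX1A-only cells. Their median ISL1 was 23.9, 216.7 and 141.4 CPM, against 79.5, 172.2 and 179.9 CPM in ISL1-only cells. LMX1A was therefore lower in the cells with both at all 3 stages, and ISL1 was lower in them in ss8 and ss15 and higher in ss11.

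Reads of both genes were also pooled in each GATA3-positive cell with at least 10 CPM of their sum. LMX1A gave at least 90% of these reads in 42, 37 and 29 cells of the successive stages, and ISL1 in 9, 32 and 33 cells. A mixture in between was seen in 5 of 56 cells in ss8 (8.93%, 2.96 to 19.6%), 10 of 79 in ss11 (12.7%, 6.24 to 22.05%) and 12 of 74 in ss15 (16.2%, 8.67 to 26.6%). Most cells with either gene were thus dominated by 1 of them. No such share was worked out for genes detected independently, so this split is no measure of exclusivity.

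Cells chosen after their values were seen show the overlap directly. An ss11 cell held 267.3 CPM of LMX1A and 860.5 CPM of ISL1 with 493 CPM of SOX10, a gene of ear and neural crest, and no read of VGLL2, an epibranchial gene. A further ss11 cell held 50.2 CPM of LMX1A and 316.997 CPM of ISL1 with 579 CPM of VGLL2 and no SOX10. An ss15 cell with 134.1 CPM of LMX1A and 194.8 CPM of ISL1 had 183.96 CPM of SOX10 and 29.9 CPM of VGLL2. These chosen cells thus differed in SOX10 and VGLL2. Among all GATA3-positive cells with both, SOX10 was detected in 1 of 5 in ss8, 5 of 11 in ss11 and 9 of 12 in ss15.

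The cells with both had more genes than the single classes at the later stages, with a median of 5897 against 5336 in LMX1A-only and 5508 in ISL1-only cells for ss11, and of 5972 against 4743 and 4931 for ss15. In ss15, 2 of the 12 had 10446 and 11092 genes. Per the study's methods, the sort gated on scatter to leave out joined cells. No doublet caller was run, and whether some wells still held a pair of cells was not tested. Without the 5% of cells with the most genes, the ratio of observed to expected was 0.77, 0.63 and 0.73 at the successive stages.

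Outside the GATA3-positive cells the overlap was rare. LMX1A and ISL1 met in 3 GATA3-negative cells of ss8, 1 of ss11 and 3 of ss15, where 2.90, 2.71 and 3.75 would follow from their shares. All kept cells together gave 8, 12 and 15 cells with both, ratios of 0.89, 0.71 and 0.87.

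The ratios of LMO4 with each of the homeodomain genes lay on both sides of 1. In GATA3-positive cells, LMX1A and LMO4 were found together in 21, 17 and 12 cells (ratios 1.11, 1.31 and 0.93), and ISL1 and LMO4 in 4, 8 and 15 cells (ratios 0.71, 0.77 and 1.01). Every interval of these ratios, made in the same way and likewise no test of independence, held 1. The ratios with LMO4 were not placed among those of all genes. All 3 LIM factors were detected in 2 GATA3-positive cells of ss8, 3 of ss11 and 5 of ss15. None of them was detected in 21.8%, 23.2% and 23.7% of GATA3-positive cells and in 43.01%, 52.7% and 49.2% of GATA3-negative cells.

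Summed LMO4 was higher in LMX1A-only than in ISL1-only GATA3-positive cells, at 12.3 against 10.9 CPM in ss8, 15.9 against 7.83 CPM in ss11 and 17.7 against 9.74 CPM in ss15. The log2 folds, taken after adding 1 CPM, were 0.16, 0.94 and 0.80 and thus under 2-fold on that scale, while the plain ratio of the CPM values in ss11 was 2.03. The share of cells with LMO4 was 45.2% against 22.2% in ss8, 35.9% against 17.2% in ss11 and 25% against 29.4% in ss15, so the direction turned at the last stage and the intervals overlapped each time. GATA3-positive cells with neither homeodomain gene had LMO4 at 14.1, 10.3 and 19.1 CPM.

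LMX1A-only and ISL1-only cells differed in the otic and epibranchial genes beside them. These classes were cut from measured values and are ranges rather than cell types, and the marker lists come from the study of these samples, so the counts are not independent evidence of a direction. Of 4 otic genes, 4, 4 and 3 were at least 2-fold higher in LMX1A-only cells at the successive stages, beside 14.5%, 14.3% and 16.4% of all measured genes, and with list medians of 3.04, 3.37 and 3.07 on the log2 scale. Of 7 epibranchial genes, 3, 5 and 5 were at least 2-fold lower in LMX1A-only cells, beside 10.6%, 11.9% and 15.9% of all genes, and with medians of -0.81, -1.63 and -1.93. The median of all measured genes was -0.02, 0.01 and -0.02.

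Among the otic genes, SOX10, a SoxE transcription factor gene, was at 512 CPM in LMX1A-only and 52.8 CPM in ISL1-only cells of ss11, and at 1004 and 77.04 CPM in those of ss15. The homeobox gene SOHO-1 was at 153.7 and 12.8 CPM in ss11 and at 401 and 38.3 CPM in ss15. The SoxE gene SOX8 was at 243.5 and 59.1 CPM in ss11 and at 259.2 and 36.6 CPM in ss15. DACT2, which encodes a Dishevelled-binding protein, was at 146.6 and 9.96 CPM in ss11 and at 136.7 and 70.1 CPM in ss15, so it separated the classes less at the later stage. In ss8, SOX10 was at 71.8 CPM in LMX1A-only cells and without a read in the 9 ISL1-only cells, where 3 reads would be 0.244 CPM. SOX10 was detected in 40.5%, 87.2% and 82.1% of LMX1A-only cells of the successive stages and in 0%, 31.03% and 17.6% of ISL1-only cells. GATA3-positive cells with neither gene also had SOX10, at 107.8 CPM in ss8, 383 CPM in ss11 and 704 CPM in ss15, and it was detected in 22.6%, 57.6% and 70.5% of them.

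Among the epibranchial genes, VGLL2, encoding a cofactor of TEAD factors, was at 9.47 CPM in LMX1A-only and 75.2 CPM in ISL1-only cells of ss11, and at 1.30 and 155.2 CPM in those of ss15. PDLIM1, whose product itself has a LIM domain and binds the cytoskeleton, was at 67.8 and 237.8 CPM in ss11 and at 66.4 and 268.5 CPM in ss15. NELL1, encoding a secreted glycoprotein, was at 44.6 and 161.3 CPM in ss11 and at 60.8 and 144.6 CPM in ss15. TFAP2E, of the AP-2 family, was already at 31.3 and 103.6 CPM in ss8. VGLL2 was at 0.785 CPM in LMX1A-only cells of ss8 and had no read in the ISL1-only cells, so the gene marked neither class there. The keratin gene KRT18 was lower in LMX1A-only cells at every stage but under 2-fold, with log2 folds of -0.45, -0.86 and -0.78.

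The other lists were less even. Neural crest genes were at least 2-fold higher in LMX1A-only cells for 4 of 6 in ss8, 6 of 6 in ss11 and 1 of 6 in ss15, the last being RXRG, a retinoid receptor gene, beside 14.5%, 14.3% and 16.4% of all measured genes. Some of these levels came from few cells, PAX7 being detected in 3 and FOXD3 in 2 of the 39 LMX1A-only cells of ss11. PAX7, a transcription factor gene of crest and dorsal neural tube, was at 9.87 CPM in LMX1A-only and 0.0349 CPM in ISL1-only GATA3-positive cells of ss11, and at 145.6 CPM in GATA3-negative cells of ss11 with LMX1A only. The mesodermal genes TWIST1 and SIM1 were at or under 2.69 CPM in both classes at every stage. GATA3 itself was at 145.3 CPM in LMX1A-only and 309.6 CPM in ISL1-only cells of ss11, and at 200.07 and 220.5 CPM in those of ss15.

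Cells with both genes lay between the single classes for 9 of the 11 otic and epibranchial genes in ss8, 6 of 11 in ss11 and 9 of 11 in ss15, beside 24.1%, 27.2% and 33.3% of all measured genes. Most listed genes differed widely between the single classes and most measured genes did not. A wide gap makes a value in between more likely, so these shares are no like background. The ss8 class with both held only 5 cells. In ss15 SOX10 was at 273.7 CPM in cells with both, against 1004 CPM in LMX1A-only and 77.04 CPM in ISL1-only cells. VGLL2 was at 72.8 CPM in cells with both, against 1.30 and 155.2 CPM in the single classes of that stage. SOHO-1 did not lie between in ss11, at 341 CPM in cells with both against 153.7 and 12.8 CPM, nor did KRT18, at 740 CPM against 240.04 and 438 CPM.

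**Figure D4:**
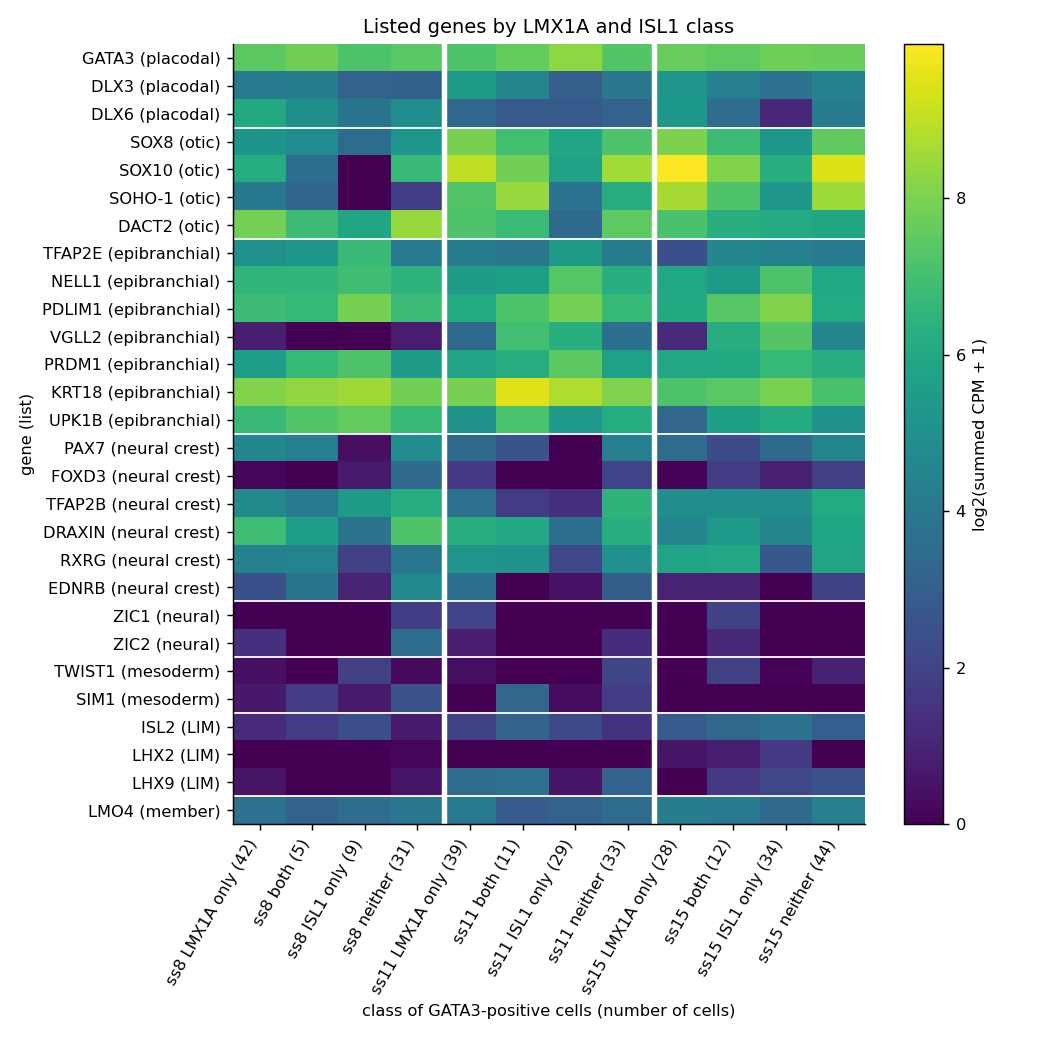
Summed CPM plus 1 on a log2 colour scale for the listed genes and LMO4 (rows) in GATA3-positive cells by class and stage (columns, number of cells in parentheses). SOX10 is higher in LMX1A-only than in ISL1-only columns (512 against 52.8 CPM in ss11, with 383 CPM in cells with neither gene), and VGLL2 is lower in them from ss11 on (9.47 against 75.2 CPM in ss11).

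Over 6363 genes with at least 20 CPM and detection in 20% of cells of 1 class, 1.96% were at least 2-fold higher and 1.48% at least 2-fold lower in LMX1A-only cells of both ss11 and ss15. Beside the genes above, the higher side held EBF3 and IRX1, which encode transcription factors, MYL4, a myosin light chain gene, SDC3, a syndecan, and the ligand gene BMP2. EBF3 was at 22.1 CPM in LMX1A-only and 0.384 CPM in ISL1-only cells of ss11 and at 39.3 and 4.94 CPM in those of ss15. MYL4 was at 198.3 and 37.9 CPM in ss11 and at 111.7 and 39.2 CPM in ss15. DLX3 was also on this side, at 43.7 and 7.09 CPM in ss11 and at 37.03 and 12.3 CPM in ss15.

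FGF8, TLX1 and WNT11 were among the named genes of the lower side. FGF8, encoding a fibroblast growth factor, was at 1.37 CPM in LMX1A-only and 99.9 CPM in ISL1-only cells of ss11. In ss15 it had no read in 28 LMX1A-only cells (3 reads would be 0.125 CPM) and was at 80.6 CPM in ISL1-only cells. TLX1, a homeobox gene, was at 1.60 and 66.1 CPM in ss11, and had no read against 234.1 CPM in ss15. FGF8 and TLX1 were nearly absent from LMX1A-only cells and present in a part of the ISL1-only cells. In ss11 and ss15, FGF8 was in 68.97% and 61.8% of ISL1-only cells and TLX1 in 37.9% and 50%. Genes had to pass the minimum in 1 class only and were named by the size of their fold. A low value in the other class is therefore favoured by the choice and is no separate result. WNT11, a Wnt ligand gene, was at 0.609 and 30.8 CPM in ss11 and at 2.13 and 89.7 CPM in ss15. AGR2, KAZALD1, CHST9, the receptor gene KIT and the desmosome gene DSP were also among the named genes of this side, DSP at 34.2 and 125.5 CPM in ss11 and at 59.1 and 201.5 CPM in ss15.

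GATA3-negative cells with LMX1A only were set beside GATA3-negative cells with neither gene. In ss8, PAX7 was at 131.3 CPM in GATA3-negative cells with LMX1A only, against 65.6 CPM in GATA3-negative cells with neither gene. It was at 145.6 against 89.7 CPM in ss11 and at 44.8 against 66.5 CPM in ss15. DRAXIN, encoding a guidance molecule of the dorsal neural tube, was at 629.99 against 560.4 CPM in ss8 and at 487 against 751 CPM in ss11, high in both. The ectodermal gene DLX3 was also seen in the later GATA3-negative cells with LMX1A only, at 22.7 against 1.78 CPM in ss11 and 28.1 against 9.39 CPM in ss15. SOX8, listed as an otic gene, was at 172.5 against 75.1 CPM in ss11. Against cells with neither gene, PAX7 was thus higher in ss8 and ss11 and lower in ss15. DRAXIN was only slightly higher in ss8 and was lower in ss11, while DLX3 was higher at both later stages. SOX10 was detected in 24.6%, 58.3% and 61.9% of GATA3-negative cells with LMX1A only at the successive stages. In those with neither gene it was in 15.8%, 45.6% and 40.2%, and the intervals overlapped each time. The remaining listed crest and neural genes are not given for these cells, and how the cells divide between kinds was not tested.

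ISL1-only GATA3-negative cells were few, with 6, 10 and 17 at the successive stages. Of 7 epibranchial genes, 5, 6 and 7 were higher in them than in GATA3-negative cells with neither gene, beside 47%, 47.9% and 45.7% of all measured genes. PDLIM1 was at 168.6 against 83.6 CPM in ss8, 165.6 against 83.02 CPM in ss11 and 124.4 against 60.5 CPM in ss15. The uroplakin gene UPK1B was at 46.8 against 4.53 CPM in ss8, 42.7 against 3.08 CPM in ss11 and 140.2 against 18.3 CPM in ss15. VGLL2 had no read on either side in ss8 and was at 28.1 against 2.08 CPM in ss11 and 87.7 against 13.3 CPM in ss15. TWIST1, a gene of mesoderm, was at 40 against 4.64 CPM in ss8, where 3 of the 6 cells held it, at 16.4 against 3.56 CPM in ss11, and without a read in the 17 cells of ss15 against 4.53 CPM. The crest and dorsal neural gene TFAP2B was at 205.8 against 197.6 CPM in ss11. In ss15 the ISL1-only cells had no read of SOX10 (3 reads would be 0.209 CPM), and their median reporter level was 344 CPM, against 0 CPM in cells with neither. In ISL1-only GATA3-negative cells the summed level was thus higher for most of the epibranchial genes at each stage. TWIST1 was higher in them as well in ss8 and ss11, but not in ss15. Whether the same cells held epibranchial genes and TWIST1, and which kinds of cells these were, was not tested. A difference between the stages was not tested either.

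Of 20 further LIM-domain genes listed, 3 could be looked at, ISL2, LHX2 and LHX9, and the other 17 were not analysed here. ISL2, the paralog of ISL1, was at 1.44, 3.27 and 8.47 CPM in GATA3-positive cells of the successive stages, against 0.0440, 1.99 and 3.4 CPM in GATA3-negative cells. It reached 10 CPM in 16.9% of GATA3-positive and 5.47% of GATA3-negative cells of ss15. LHX9 was at 7.45 against 1.77 CPM in ss11 and 2.94 against 7.36 CPM in ss15. LHX2 stayed at or under 2.48 CPM in both groups at all stages.

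Genes most like each LIM factor were sought by the Pearson correlation of log2(CPM + 1) across the kept cells of each stage, averaged over the 3 stages, among 10167 genes detected in at least 5% of cells at every stage. The cells of a stage share a sort and differ in depth, so these are descriptions. A mean of 0.3 or more was reached with LMX1A by 8 genes (0.0787%), with ISL1 by 17 (0.167%) and with LMO4 by 2 (0.0197%). Only genes with a symbol were named, a small part of those compared. Each was picked for its correlation in these same cells, so the detection shares given with it restate that choice and are no further support. For LMX1A the named gene was DLX3, at rank 4 among all the genes, with 0.36, 0.39 and 0.25 at the successive stages and a mean of 0.33. LMX1A was detected in 70.6%, 61.9% and 39.6% of cells with DLX3, and in 34.7%, 24.1% and 22.3% of cells without.

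For ISL1, the named genes were NKX2-5, a homeobox gene of heart and pharyngeal tissue (mean 0.53), FGF8 (0.47), the sulfotransferase gene CHST9 (0.38), KAZALD1 (0.37) and KRT18 (0.33), the last at rank 7 among all the genes. NKX2-5 gave 0.45, 0.66 and 0.48 at the successive stages. ISL1 was detected in 9 of 17 cells with NKX2-5 in ss8, 21 of 23 in ss11 and 20 of 24 in ss15, and in 5.47%, 12.6% and 20.7% of cells without it. Most NKX2-5 cells of the later stages therefore had ISL1 (intervals 72 to 98.9% in ss11 and 62.6 to 95.3% in ss15). Most ISL1 cells had no NKX2-5 at 10 CPM. With FGF8, ISL1 was found in 32%, 69.2% and 67.9% of cells, against 6.05%, 10.8% and 14.7% without.

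For LMO4, the named gene was SOX10, with 0.48, 0.31 and 0.32 and a mean of 0.37, the highest of the genes compared. The likeness was seen on both sides of the GATA3 split. In GATA3-positive cells LMO4 was detected in 72%, 37.3% and 40.6% of cells with SOX10 and in 27.4%, 8.89% and 20.4% of cells without SOX10 at the successive stages. In GATA3-negative cells the shares were 70.6%, 35.2% and 47.9% with SOX10 and 26.3%, 10.1% and 15% without. The intervals were apart in each of these comparisons but that of GATA3-positive ss15 cells (28.9 to 53.1% against 10.2 to 34.3%). SOX10 was picked for its correlation with LMO4 in these same cells, so such gaps follow in part from the choice and are no further support. Cells with SOX10 had more genes in 5 of the 6 groups, for example a median of 8466 against 7693 in GATA3-positive ss8 cells, where the shares after thinning were 68% and 33.9%. Thinning evens out counts rather than genes, and the part of the gene difference was not tested. The mean correlation of LMO4 was 0.05 with LMX1A and -0.03 with ISL1, and that of LMX1A with ISL1 was -0.10.

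**Figure D5:**
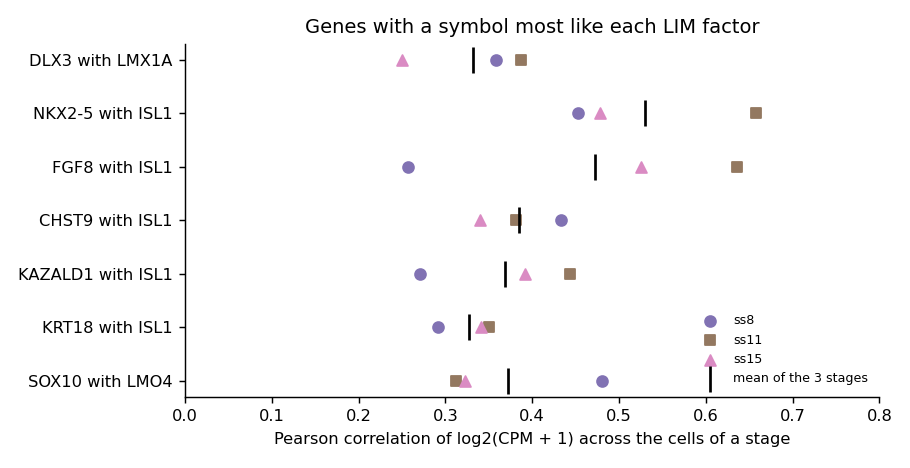
Pearson correlation of log2(CPM + 1) across the kept cells of a stage (symbols) and its mean over the 3 stages (vertical bars) for the genes with a symbol most like each LIM factor. NKX2-5 with ISL1 has the highest mean, 0.53, and SOX10 with LMO4 is highest in ss8, 0.48.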

How the data were processed

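The deposited counts were made by the authors with cutadapt 2.10, HISAT2 2.2.1, SAMtools 1.10 and HTSeq 0.12.4 on galGal6, per the submitters' processing notes. They are raw whole-number counts per gene and cell, and a second deposited count table holds the reporter reads. The strand setting is not given in the sources used here, so reads of overlapping antisense genes cannot be told apart. Symbols came from 332 identifiers in the study's supplementary lists, so the genes named are mostly ones the study listed (103 of 6363 genes compared between classes, 199 of 10167 compared for likeness).

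Of 858 libraries (288 ss8, 284 ss11 and 286 ss15), those correlated at 0.95 or more over genes were added up, and 273, 262 and 246 cells were kept. GATA3-positive and GATA3-negative cells numbered 87 and 186 in ss8, 112 and 150 in ss11, and 118 and 128 in ss15. Fold changes are log2 of summed CPM plus 1, and shares carry exact Clopper-Pearson intervals. A gene was measured when detected in 5% of cells of 1 group. Named genes were the 3 factors, GATA3, listed markers, the 10 genes with a symbol on each side with the largest smaller fold over ss11 and ss15, and up to 5 genes per factor with a mean likeness of 0.3. Python 3.11.15, SciPy 1.17.1 and, for TMM as an alternative scaling, edgeR 4.0.16 were used, and the code was tested on simulated data. Members and lists were chosen with earlier results of these data known.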

Additional observations from a re-analysis of the deposited data

Results flagged for a closer look

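LMX1A moved in opposite directions between stages in GATA3-positive and GATA3-negative cells when reads were summed. For ss11 over ss8 the log2 fold was -0.22 in GATA3-positive and 0.74 in GATA3-negative cells, and for ss15 over ss8 it was -0.30 and 0.29. With 1 sample per stage the difference was not tested. The share of cells with LMX1A was lower at the later stages in both groups, 33.9% in ss15 against 54% in ss8 for GATA3-positive cells and 18.8% against 32.3% for GATA3-negative cells. The median number of genes per cell was lower at those stages as well. In GATA3-negative cells the mean of log2(CPM + 1) gave -0.19 for ss11 over ss8 and -0.67 for ss15 over ss8, and without the cell with the most reads in each group the summed folds were 0.59 and 0.03. Without ss8 plate 3 they were 0.36 and -0.09.

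The 69 cells left out for low counts or few genes held 871 reads of LMX1A, 1442 of ISL1 and 990 of LMO4 in 18711480 counts. At 10 CPM or more LMX1A was in 11 of these cells (15.9%), ISL1 in 7 (10.1%) and LMO4 in 19 (27.5%).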

How the results depend on the processing

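Of 75 alternative values for the share of GATA3-positive cells with a LIM factor, 63 stayed within the counting interval. LMO4 at 1 CPM was in 65.5%, 41.96% and 46.6% of cells of the successive stages, and at 50 CPM in 4.6%, 8.04% and 9.32%. LMX1A at 50 CPM was in 33.9% of ss11 cells. With cells chosen by at least 2 of GATA3, DLX3 and DLX6, LMX1A was in 67.1% of ss8, 61.4% of ss11 and 41.8% of ss15 cells. ISL1 was in 26.3% of ss11 and 27.3% of ss15 cells of that choice. The ss15 order of LMX1A and ISL1 was thus the reverse of that in GATA3-positive cells (33.9% and 38.98%). With cells of at least 1000000 counts and 2000 genes ISL1 was in 50% of ss15 cells. The cause of these shifts was not tested. All 28 alternative ratios of cells with both LMX1A and ISL1 stayed within the main interval. Their range was 0.22 to 0.89 for ss8, 0.43 to 0.71 for ss11 and 0.68 to 1.09 for ss15, the last value with the stricter limits on cells, and without each ss8 plate the ss8 ratio was 0.26 to 0.89. With a minimum of 50 CPM, 67 and 43 genes were at least 2-fold higher and lower in LMX1A-only cells (1.74% and 1.12% of 3849 genes, against 1.96% and 1.48% of 6363 in the main result). With both factors detected from 50 CPM, 1.89% and 1.38% of 6392 genes were higher and lower, of which 87 and 59 genes were shared with the main result. Of the alternative log2 folds of the LIM factors, 77 stayed within the counting interval of the reads, widened where needed to hold the main value. The other 94 moved out of it. No fold of the LIM factors past 2-fold changed sign under any alternative. Leaving out the cell with the most reads in each group, and the 5% of cells with the most genes, were chosen after seeing the data. TMM moved stage folds in GATA3-positive cells by up to 0.13. No paired analysis was possible because each stage is 1 sample and the results come from no test. Differences between embryos were not measured.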
